A study of Mus musculus with 59 samples.

Results

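The genes described here were 10 members of the autophagy and mitophagy machinery, taken by symbol from a table of 47643 gene symbols: Map1lc3a, Map1lc3b, Gabarapl1, Sqstm1, Bnip3, Bnip3l, Ulk1, Becn1, Tfeb and Atg14. All 10 symbols were present, and all 10 passed the filter on low values in every fit. Their transcript levels were followed across 8 groups of libraries from 3 mouse muscles: the diaphragm (Dia), the muscle of breathing; the tibialis anterior (TA), a fast limb muscle; and the soleus (SOL), a slow limb muscle.

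RNA was sequenced from 59 muscle samples of female NCI Ath/nude mice aged 4 months, a strain without a thymus and so with few mature T cells. Every mouse carried a patient-derived human melanoma, grown as a xenograft, and no tumor-free mouse was among the samples. One xenograft was cachectic (CAC), which means that it brings loss of body and muscle mass, and the other was non-cachectic (NONCAC). Each of these 2 conditions was represented by 1 melanoma, so the effect of wasting and other differences between the melanomas cannot be told apart. In the diaphragm, mice were given either mock treatment or recombinant Fibcd1 (rFibcd1), a secreted protein examined by the study as a regulator of myofiber size, injected into the peritoneum during the last week. The diaphragm groups held 10 CAC mock, 10 CAC rFibcd1, 9 NONCAC mock and 10 NONCAC rFibcd1 libraries. The tibialis anterior and the soleus each had 5 CAC and 5 NONCAC libraries, for which the labels name no injection.

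Macroautophagy encloses cytoplasm in a double membrane, the autophagosome, and delivers it to lysosomes for breakdown. The ULK1 kinase complex starts the process, a lipid kinase complex built around BECN1 and ATG14 marks the site, and ubiquitin-like proteins of the ATG8 family are attached to the growing membrane, where cargo receptors bind them. In skeletal muscle this pathway clears damaged mitochondria (mitophagy) and protein aggregates, and FoxO transcription factors are known to drive several of its genes during atrophy. A transcript level does not measure the flux of the pathway, since the proteins themselves are consumed in it.

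Promoter sequence is shown for the members in which a known motif of autophagy gene control was found. The letters searched, on both strands, were CACGTG, the E-box to which TFEB and its relatives bind, and GTAAACA and ATAAACA, forms of the site to which FoxO proteins bind. RefSeq promoters (GRCm38.p6, 250 bases before to 50 bases after a start site) were at hand for 7 of the 10 members, namely Map1lc3b, Gabarapl1, Sqstm1, Bnip3, Ulk1, Tfeb and Atg14. The motif is in capitals in each window of 30 bases, which is written in the direction of the gene.
Gabarapl1: aagatacacaaATAAACAaagcttctgtcc
Bnip3: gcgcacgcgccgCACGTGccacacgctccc
Atg14: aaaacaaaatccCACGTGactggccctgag
The Gabarapl1 window lies at chr6:129533086-129533115 on the plus strand, and its motif begins 95 bases before the start site. The Bnip3 window lies at chr7:138909597-138909626 on the minus strand, with the motif 108 bases before the start. The Atg14 window lies at chr14:47568418-47568447 on the minus strand, with the motif beginning 1 base before the start site and so spanning it. This RefSeq start lies inside the GENCODE gene given next, not at its 5′ end. Of 32851 promoters of the same length, 7.15% held CACGTG, 4.6% held ATAAACA and 3.65% held GTAAACA, and GTAAACA was found in none of the 7 members. These matches are a description of the letters and not evidence of binding.

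By the GENCODE annotation (release 21, GRCm38), all 10 members are protein-coding genes, and each value below covers the whole gene. Map1lc3a lies at chr2:155276297-155278073, Map1lc3b at chr8:121590361-121598760, Gabarapl1 at chr6:129533160-129542346 and Tfeb at chr17:47737030-47792419, all on the plus strand. Sqstm1 (chr11:50199366-50210827), Becn1 (chr11:101285952-101302286), Bnip3 (chr7:138890836-138909519), Bnip3l (chr14:66985239-67008877), Atg14 (chr14:47540893-47570649) and Ulk1 (chr5:110784488-110810097) are on the minus strand. Exons of 6 members overlap a gene of the opposite strand, over 43.9% of the exonic bases of Becn1 (with Cntd1), 28.3% of Gabarapl1 (with 1700101I11Rik), 22.3% of Bnip3 (with Gm45507), 17.3% of Sqstm1 (with Mrnip), 5.53% of Atg14 (with Gm49004) and 0.772% of Map1lc3b (with Zcchc14). Whether strand was used in counting was not resolved, so reads of such partners may be shared. Bnip3l-ps, a pseudogene of Bnip3l, was at 0 TPM in all 59 libraries.

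Values are in TPM, the share of each library's transcripts that a gene holds per unit of transcript length. They sum to the same total in every library and keep no trace of depth, so the depth behind each value is unknown. All 6 skeletal muscle markers (Acta1, Ckm, Myh1, Myh2, Myh4 and Myh7) were above 0 in all groups. The share of TPM from mitochondrially encoded genes did not overlap between CAC and NONCAC in the mock diaphragm (32.9 to 41.6% against 41.9 to 51.9%), the TA (25.1 to 45.6% against 47.3 to 51.7%) or the SOL (24.1 to 34.6% against 38.96 to 44.04%). Libraries are named here by the number in their column name, which the labels do not tie to a replicate. Library 20 of the CAC mock diaphragm, library 3 of the CAC rFibcd1 diaphragm and library 8 of the CAC TA stood apart from their groups for most members, and a value that moved by over 1.5 times or changed its call without 1 of them is given without it too. The libraries also fell into 2 states by Pcna-ps2, a pseudogene, at up to 0.4276 TPM in 23 libraries and at 5.595 TPM or more in 36. All CAC limb libraries were in the high state and all NONCAC limb libraries in the low state, so state and melanoma cannot be told apart there, while the mock diaphragm had 9 CAC and 3 NONCAC libraries in the high state. In bulk muscle, fewer cells of a type and less RNA per cell cannot be told apart.

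Cachectic melanoma was accompanied by higher transcript levels of Map1lc3a, Map1lc3b and Bnip3 in the mock diaphragm, the TA and the SOL. All 10 members were higher in the CAC TA, 5 of 10 in the mock CAC diaphragm, and 3 of 10 in the CAC SOL, where Ulk1 was lower. After the scaling described next, 6, 1 and 1 members were called higher in these muscles, none of them in all 3, and the direction of Ulk1 turned in the TA. The calls were made with limma on log2(TPM + 1) at an adjusted p under 0.05, over all genes of the fit. These counts are to be read beside all genes tested, of which 56.4% were called higher in the TA, 30.9% in the mock diaphragm, and 17.5% higher and 7.54% lower in the SOL. The groups did not overlap for 9 members in the TA, all but Ulk1, beside 49.1% of all genes, and for the 3 members called higher in the SOL, beside 14.6%. The 3 members called higher in all 3 muscles stand beside 12.3% of the 10914 genes tested in all of them. Without the libraries that stood apart, all 10 members were still called higher in the TA, beside 61.1% of all genes, and 5 in the mock diaphragm (Map1lc3a, Map1lc3b, Bnip3, Bnip3l and Becn1), beside 29%. The median log2 fold change of the 10 members was 0.87 in the TA, 0.32 in the mock diaphragm and 0.27 in the SOL, beside medians over all genes of 0.41, 0.20 and 0.09.

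**Figure D1:**
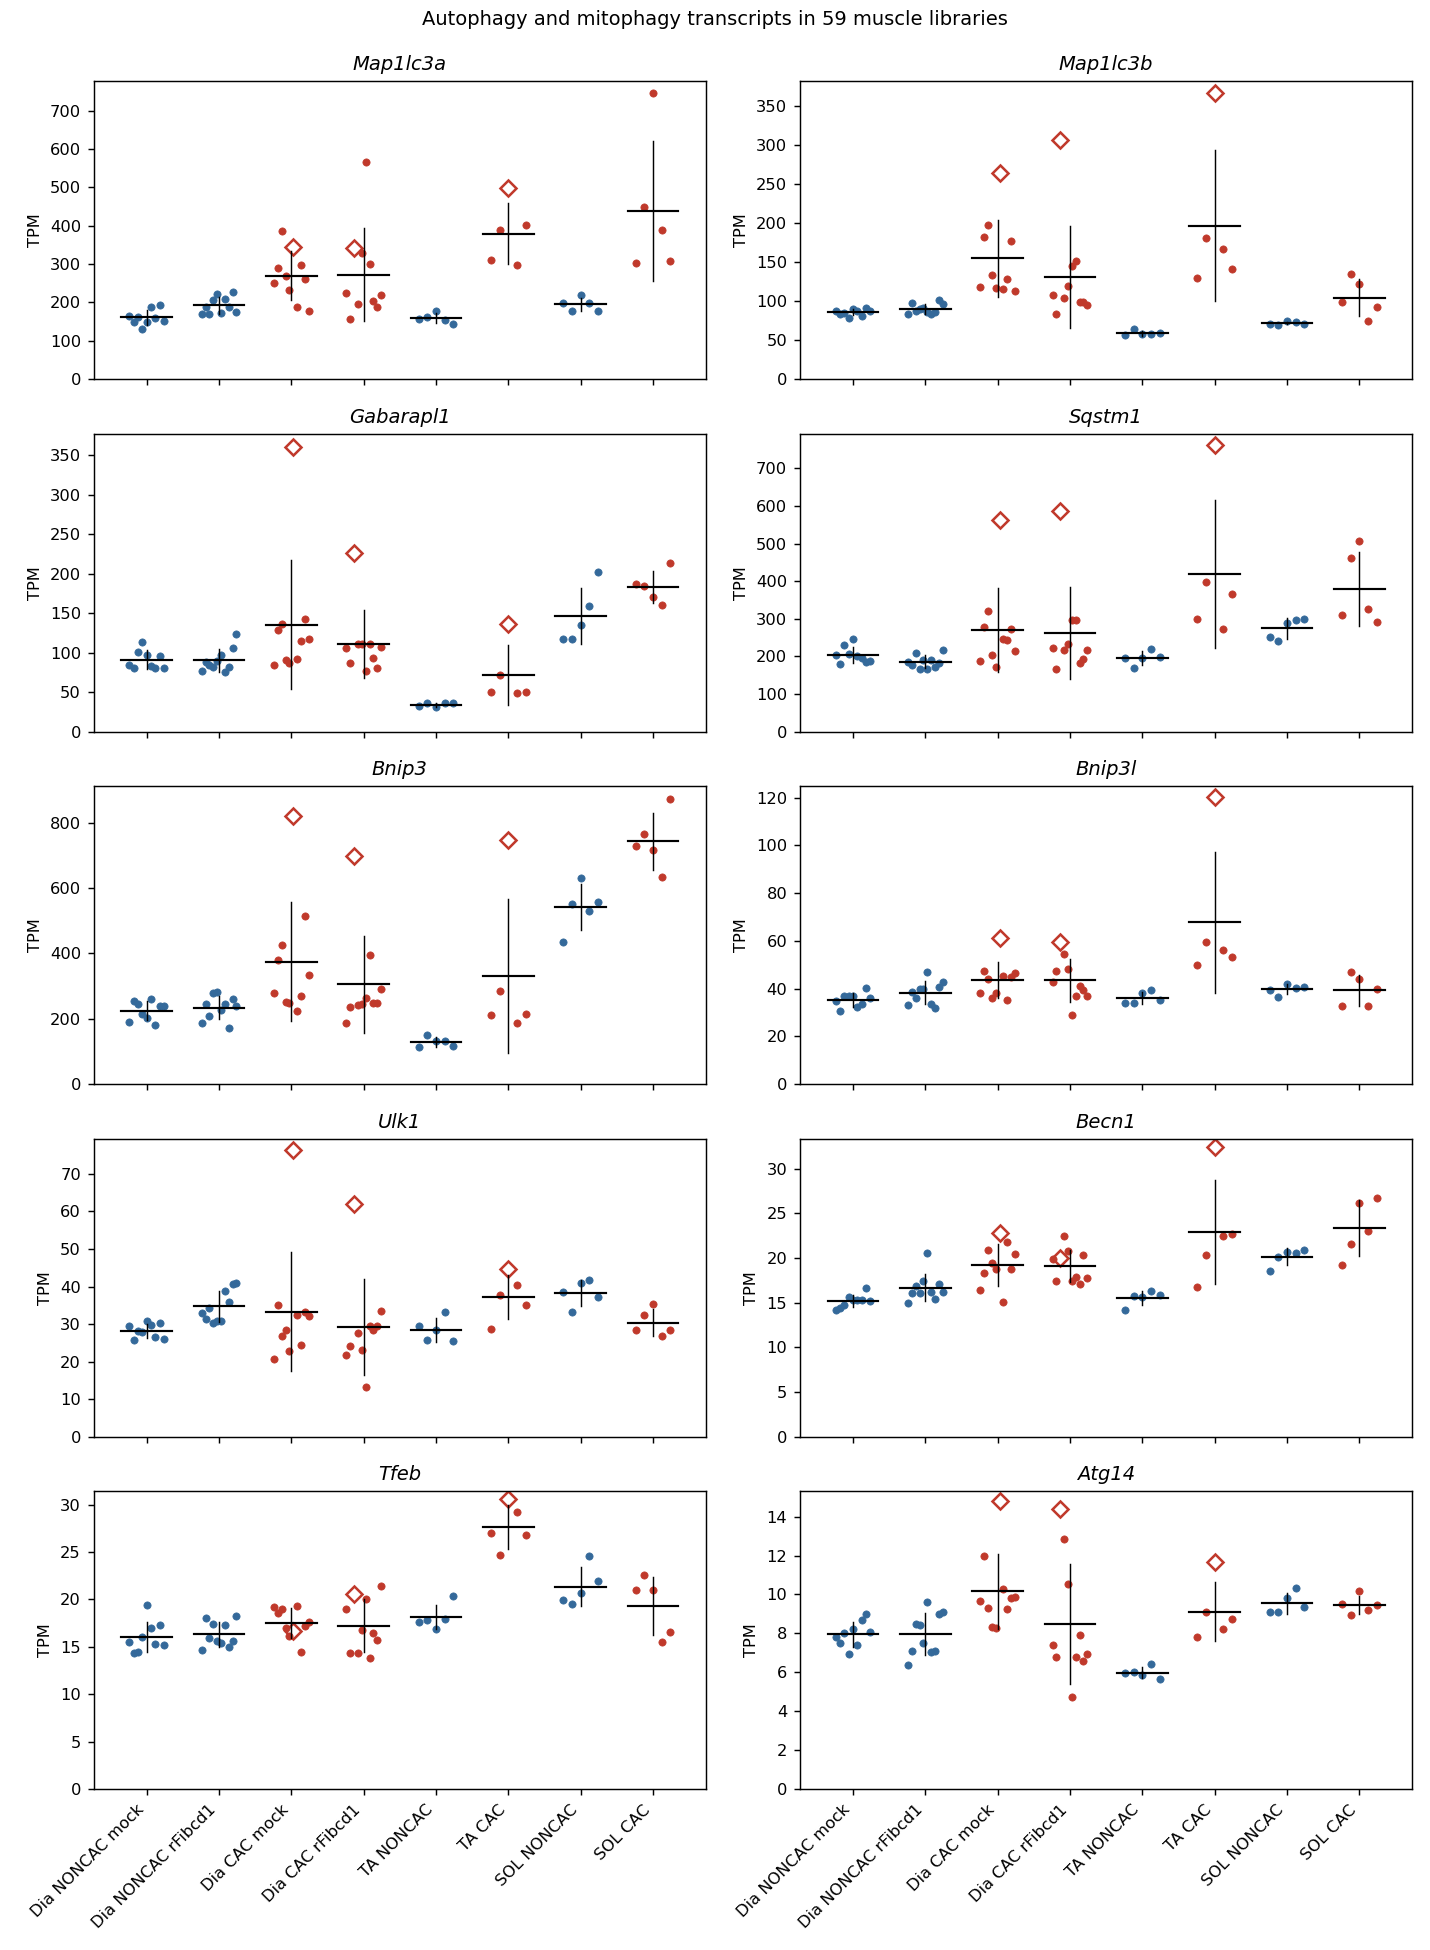
TPM of each of the 10 genes (vertical axes, from 0) in every one of the 59 libraries, by group. Map1lc3a, Map1lc3b and Bnip3 lie higher in the CAC groups of the mock diaphragm, the TA and the SOL, and a few CAC libraries lie far above their groups, such as the Bnip3 value of 820.2 TPM in the mock diaphragm.

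TPM is a share of a fixed total, so a gene's value depends on all others. The fits were therefore repeated after scaling each library to the median ratio over genes, which brought the median of all genes to between 0.00 and 0.01 in these comparisons. Under this scaling 7.42% of all genes were called higher in the mock diaphragm, 20% in the TA and 14.4% in the SOL, where 13.7% were called lower. Beside these shares, 1 member was called higher in the mock diaphragm (Map1lc3b, log2 fold change 0.56), 6 in the TA (Map1lc3b 1.14, Map1lc3a 0.75, Bnip3 0.65, Sqstm1 0.52, Gabarapl1 0.45 and Bnip3l 0.34) and Map1lc3a in the SOL (0.98), where Ulk1 was called lower (-0.44).

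**Figure D2:**
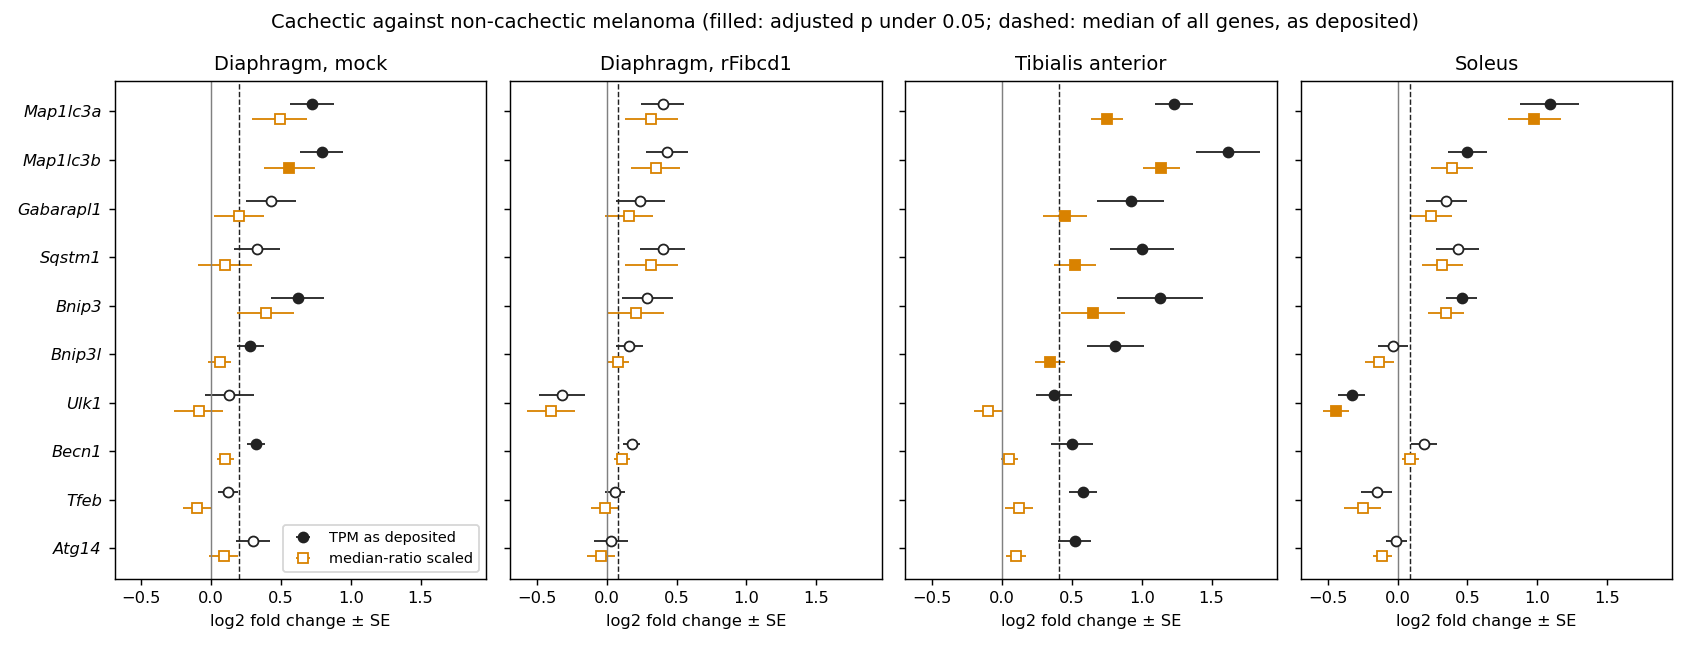
Log2 fold change ± SE of the 10 genes, CAC against NONCAC, in the 4 pairs of groups (panels), from TPM as deposited (circles) and after median-ratio scaling (squares), filled where the adjusted p was under 0.05. The members shift to the left by about the distance of the dashed line, the median of all genes, and Map1lc3b (1.14) and Map1lc3a (0.98) keep the largest scaled values in the TA and the SOL.

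Map1lc3a encodes LC3A, an ATG8 protein that is lipidated on the autophagosome membrane. In the mock diaphragm its level ranged from 132 to 194 TPM, with a median of 159, in the NONCAC group and from 178 to 386 TPM, with a median of 266, in the CAC group. Most CAC libraries lay above the NONCAC group, but the ranges overlapped, and the difference passed the test (log2 fold change 0.72, SE 0.156, adjusted p = 0.000828 by limma) but not after median-ratio scaling (0.49, adjusted p = 0.0836). The 5 NONCAC TA libraries had 143, 154.5, 157, 162 and 177.5 TPM, and the 5 CAC libraries 298.5, 310.3, 390, 401 and 497. These groups were well apart (log2 fold change 1.23, SE 0.138, adjusted p = 0.000136), a 2.345-fold difference on the log2(TPM + 1) scale. In the SOL the NONCAC values were 177, 178, 198.5, 199 and 220 TPM and the CAC values 303, 309, 389, 448.5 and 746. All 5 CAC SOL libraries were above all 5 NONCAC libraries (log2 fold change 1.09, SE 0.210, adjusted p = 0.00404), with library 8 the highest at 746 TPM.

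Map1lc3b encodes LC3B, the ATG8 protein most used to mark autophagosomes. NONCAC mock diaphragm libraries ranged from 78.9 to 90.7 TPM, with a median of 87.4, and CAC libraries from 114 to 265 TPM, with a median of 131. Of the 10 members, this was the only one whose mock diaphragm groups did not overlap, as was true of 4.07% of all genes in the direction CAC above NONCAC (log2 fold change 0.79, SE 0.157, adjusted p = 0.000338). Without library 20 and library 3, which were both left out of this fit, its log2 fold change was 0.70. The 5 NONCAC TA libraries had 57.2, 57.35, 57.4, 58.6 and 64.5 TPM, close together, and the CAC TA 130.4, 141, 167, 181 and 367. The CAC TA libraries were all above the NONCAC ones, and library 8 was far above the other CAC libraries. The difference was the largest of any member in any muscle (log2 fold change 1.62, SE 0.228, adjusted p = 0.000538), 3.064-fold, and 1.36 on the log2 scale without library 8. The NONCAC SOL had 70.04, 71.3, 71.4, 73.4 and 74.4 TPM and the CAC SOL 74.4, 93.2, 99.1, 122 and 135. The lowest CAC value was only just above the highest NONCAC value, and the difference passed the test (log2 fold change 0.50, SE 0.137, adjusted p = 0.0203) but not after median-ratio scaling (0.39, adjusted p = 0.075).

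Gabarapl1 encodes a second type of ATG8 protein, of the GABARAP subfamily. In the TA, NONCAC libraries had 30.7, 32.3, 35.75, 36.1 and 36.7 TPM and the CAC TA 49.25, 50.3, 50.6, 71.8 and 137. All CAC TA libraries were higher (log2 fold change 0.92, SE 0.243, adjusted p = 0.00952), and the log2 fold change was 0.66 without library 8. Mock diaphragm values ranged from 80.6 to 114 TPM, with a median of 84.99, in NONCAC and from 83.9 to 361 TPM, with a median of 116, in CAC. The highest CAC value was that of library 20, and the next highest was 142 TPM. The groups overlapped and the difference did not pass the test (log2 fold change 0.43, SE 0.180, adjusted p = 0.0609), though it did when 1 library was left out, CAC mock 6, 9, 10 or 22 or CAC rFibcd1 3 (0.43 to 0.49, adjusted p from 0.0353 to 0.0418). Without library 20 the value was 0.26 (adjusted p = 0.145). In the SOL the NONCAC libraries had 117, 118, 135, 159.5 and 203 TPM and the CAC libraries 160.4, 170, 185, 186.5 and 214. The NONCAC library 65, at 203 TPM, was above 4 of the 5 CAC libraries, and the difference did not pass (log2 fold change 0.35, SE 0.147, adjusted p = 0.106), though it did without library 65 (0.47, adjusted p = 0.0197).

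Sqstm1 encodes p62, a receptor that binds ubiquitinated cargo and LC3 and is itself broken down with the cargo. The NONCAC TA had 168, 195, 197, 198 and 219.9 TPM and the CAC TA 274, 299, 366, 397 and 762. The TA groups were apart (log2 fold change 1.00, SE 0.228, adjusted p = 0.00545), and without library 8 the log2 fold change was 0.76. Its level in the mock diaphragm was 204 ± 21.8 TPM in NONCAC (SD, n = 9; from 180.5 to 247.5 TPM, with a median of 200.4) and 270.4 ± 112.5 TPM in CAC (SD, n = 10; from 173 to 564 TPM, with a median of 245). These ranges overlapped and the difference did not pass (log2 fold change 0.33, SE 0.166, adjusted p = 0.121), and the value was 0.20 without library 20. The SOL values were 239.9, 251, 289, 297 and 299.7 TPM in NONCAC and 290.4, 311, 327.5, 461 and 508 in CAC, overlapping and short of the threshold (log2 fold change 0.43, SE 0.156, adjusted p = 0.0639), which it passed without CAC library 6 (0.49, adjusted p = 0.0432) or 10 (0.52, adjusted p = 0.0324).

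Bnip3 encodes a receptor in the outer mitochondrial membrane that recruits LC3 to mitochondria and is known as a target of FoxO3 and of hypoxia. It was the most abundant member in the SOL, by TPM, which is per transcript length. The NONCAC SOL had 436, 531, 552, 556 and 631 TPM and the CAC SOL 633, 716, 730.2, 766 and 873. All CAC SOL libraries were higher, the nearest pair being 631 and 633 TPM (log2 fold change 0.46, SE 0.112, adjusted p = 0.0124), and the call was lost after median-ratio scaling (0.35, adjusted p = 0.0641). The NONCAC TA had 113, 117, 133, 134 and 151 TPM and the CAC TA 189, 213, 215, 286 and 747. The TA groups were apart (log2 fold change 1.13, SE 0.308, adjusted p = 0.0109), but library 8 alone, at 747 TPM, carried part of the difference, which was 0.78 on the log2 scale without it. Bnip3 in the mock diaphragm ranged from 181 to 259.9 TPM, with a median of 238, in NONCAC and from 225 to 820.2 TPM, with a median of 306, in CAC. The ranges overlapped and the difference passed (log2 fold change 0.62, SE 0.189, adjusted p = 0.0115); it was 0.49 (adjusted p = 0.00641) without library 20 and library 3, and 0.39 (adjusted p = 0.193) after median-ratio scaling.

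Bnip3l encodes NIX, a related mitophagy receptor best known from the clearing of mitochondria in maturing red blood cells. TA libraries had 33.99, 33.99, 35.3, 38.2 and 39.4 TPM in NONCAC and 50, 53.4, 56.05, 59.5 and 120.3 in CAC. The TA groups were apart (log2 fold change 0.81, SE 0.204, adjusted p = 0.00817), and the log2 fold change was 0.58 without library 8. The mock diaphragm ranged from 30.7 to 40.5 TPM, with a median of 36.1, in NONCAC and from 35.4 to 61.2 TPM, with a median of 44.5, in CAC, overlapping. This difference passed the test (log2 fold change 0.28, SE 0.099, adjusted p = 0.0265) but not when library 20 alone was left out (0.23, adjusted p = 0.0636), or library 62 of the NONCAC mock group (0.26, adjusted p = 0.0569). The SOL had 36.45, 39.3, 40.5, 40.8 and 41.8 TPM in NONCAC and 32.9, 32.9, 39.9, 44.2 and 47.1 in CAC, so that CAC libraries lay on both sides of the NONCAC group (log2 fold change -0.03, SE 0.107, adjusted p = 0.88).

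Ulk1 encodes the kinase that starts autophagosome formation. Its level was lower in the CAC SOL and, before median-ratio scaling but not after it, higher in the CAC TA. The NONCAC SOL had 33.2, 37.1, 38.6, 40.9 and 41.7 TPM and the CAC SOL 26.8, 28.4, 28.4, 32.5 and 35.5. Only the highest CAC library, number 8, reached above the lowest NONCAC value, and the CAC group was lower (log2 fold change -0.33, SE 0.096, adjusted p = 0.0275). This call was lost in 5 of the 10 fits that each left out 1 library (CAC 9 or 10, or NONCAC 61, 63 or 64), with log2 fold changes from -0.33 to -0.29 and adjusted p from 0.0511 to 0.071. The NONCAC TA had 25.5, 25.8, 28.3, 29.4 and 33.1 TPM and the CAC TA 28.8, 35.01, 37.7, 40.4 and 44.6. The TA groups overlapped, and the higher level in CAC (log2 fold change 0.37, SE 0.129, adjusted p = 0.0276) turned to -0.10 after median-ratio scaling and lost its call in 4 of the 10 fits that each left out 1 library (CAC 9, or NONCAC 62, 63 or 65), with values from 0.34 to 0.37 and adjusted p from 0.0561 to 0.0657. In the mock diaphragm Ulk1 ranged from 25.85 to 30.8 TPM, with a median of 28.1, in NONCAC and from 20.6 to 76.3 TPM, with a median of 30.3, in CAC, where the library after the highest, number 20, had 35.1 TPM. The difference did not pass (log2 fold change 0.13, SE 0.173, adjusted p = 0.554), and it was -0.01 without library 20 and library 3 and -0.09 after median-ratio scaling.

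Becn1 and Atg14 encode subunits of the lipid kinase complex that marks the site of the autophagosome. Becn1 ranged from 14.2 to 16.6 TPM, with a median of 15.3, in the NONCAC mock diaphragm and from 15.03 to 22.8 TPM, with a median of 19.1, in CAC. Its CAC libraries were mostly above the NONCAC range (log2 fold change 0.32, SE 0.063, adjusted p = 0.000357), while after median-ratio scaling the value was 0.10. The NONCAC TA had 14.2, 15.65, 15.7, 15.8 and 16.3 TPM of Becn1 and the CAC TA 16.8, 20.3, 22.4, 22.7 and 32.4. The groups were apart by a small gap (log2 fold change 0.50, SE 0.149, adjusted p = 0.0151), and the value was 0.05 after median-ratio scaling. In the SOL, Becn1 had 18.5, 20.1, 20.5, 20.7 and 20.9 TPM in NONCAC and 19.2, 21.6, 23, 26.1 and 26.7 in CAC, overlapping (log2 fold change 0.19, SE 0.095, adjusted p = 0.157), and the difference passed without CAC library 6 (0.26, adjusted p = 0.0391). Atg14 was the least abundant member. Its TA values were 5.67, 5.86, 5.99, 5.995 and 6.45 TPM in NONCAC and 7.804, 8.22, 8.735, 9.12 and 11.7 in CAC, with no overlap (log2 fold change 0.52, SE 0.117, adjusted p = 0.00514) but 0.10 after median-ratio scaling. For the mock diaphragm, Atg14 ranged from 6.93 to 9.02 TPM, with a median of 8.01, in NONCAC and from 8.27 to 14.8 TPM, with a median of 9.75, in CAC, short of the threshold (log2 fold change 0.30, SE 0.123, adjusted p = 0.0549). It passed without CAC mock library 9 or 10, NONCAC mock 68, or CAC rFibcd1 3, 4 or 11 (0.30 to 0.33, adjusted p from 0.0298 to 0.0487). Its SOL values were 9.104, 9.11, 9.34, 9.83 and 10.3 TPM in NONCAC and 8.96, 9.21, 9.47, 9.499 and 10.2 in CAC, nearly the same range (log2 fold change -0.01, SE 0.074, adjusted p = 0.944).

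Tfeb encodes a transcription factor that drives lysosomal and autophagy genes. TA levels were 16.9, 17.7, 17.85, 17.9 and 20.3 TPM in NONCAC and 24.7, 26.8, 27.01, 29.2 and 30.6 in CAC. Every CAC TA library was higher, with the smallest SE of any member in this muscle (log2 fold change 0.58, SE 0.099, adjusted p = 0.00144), though the value was 0.12 after median-ratio scaling. In the mock diaphragm it ranged from 14.3 to 19.4 TPM, with a median of 15.5, in NONCAC and from 14.45 to 19.3 TPM, with a median of 17.4, in CAC, and the difference did not pass (log2 fold change 0.12, SE 0.073, adjusted p = 0.195). The SOL had 19.55, 19.99, 20.7, 21.9 and 24.6 TPM in NONCAC and 15.5, 16.5, 20.98, 20.99 and 22.5 in CAC, with CAC libraries both below and within the NONCAC range (log2 fold change -0.15, SE 0.113, adjusted p = 0.368), and the value was -0.08 without CAC library 9.

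State and melanoma were partly separable in the mock diaphragm. With the state as a term in the model, 3 members were called higher there, beside 12.3% of all genes in that direction: Map1lc3a (0.74, adjusted p = 0.00421), Map1lc3b (0.77, adjusted p = 0.00335) and Becn1 (0.24, adjusted p = 0.00846). Bnip3 (0.51, adjusted p = 0.0928) and Bnip3l (0.16, adjusted p = 0.303) did not pass. Among high-state libraries only, Becn1 passed (0.31, adjusted p = 0.0456), beside 5% of all genes in that direction, while Map1lc3b (0.78, adjusted p = 0.0737) and Map1lc3a (0.62, adjusted p = 0.0602) had values close to those of the full fit. Between the states themselves, with groups as terms, 61% of diaphragm genes differed, and among the members Bnip3l (0.22, adjusted p = 0.0133) and Becn1 (0.13, adjusted p = 0.0144) were higher in the high state.

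In the rFibcd1-treated diaphragm, no member passed the test between CAC and NONCAC, beside 9.11% of all genes. At an unadjusted p under 0.05 there were 4 members, all with higher values in CAC, as had 19.1% of all genes: Becn1 (0.18, p = 0.00491, adjusted p = 0.0523), Map1lc3b (0.43, p = 0.00777, adjusted p = 0.0672), Map1lc3a (0.40, p = 0.012, adjusted p = 0.0863) and Sqstm1 (0.40, p = 0.0187, adjusted p = 0.112), and a Dunn test called 0 members and 0 genes. When 1 library was left out, Becn1 passed in 10 of 39 fits (0.18 to 0.22, adjusted p from 0.0144 to 0.0499), namely without CAC rFibcd1 2, 11, 14, 16 or 18, CAC mock 6, 20, 22 or 32, or NONCAC rFibcd1 56. Map1lc3b passed without CAC rFibcd1 2, 16 or 18 or CAC mock 20 (0.43 to 0.49, adjusted p from 0.0319 to 0.0489), and Map1lc3a without CAC rFibcd1 2 (0.48, adjusted p = 0.0295). Without library 3, the values of Map1lc3b and Sqstm1 were lower, at 0.28 and 0.26. All 10 members overlapped between these groups. Map1lc3b, for example, ranged from 83.4 to 102 TPM, with a median of 88.75, in NONCAC rFibcd1 and from 83.8 to 307.5 TPM, with a median of 106, in CAC rFibcd1, where library 3 was the highest. Map1lc3a ranged from 170.4 to 228 TPM, with a median of 188.5, in NONCAC rFibcd1 and from 156 to 565 TPM, with a median of 223, in CAC rFibcd1, where library 11 was the highest and the next library had 341 TPM. The remaining values were 0.29 for Bnip3 (adjusted p = 0.328), 0.24 for Gabarapl1 (0.406), 0.16 for Bnip3l (0.3), 0.06 for Tfeb (0.629), 0.03 for Atg14 (0.91) and -0.32 for Ulk1 (0.228). Without library 3 they were 0.15 for Bnip3 and 0.12 for Gabarapl1, and without library 11 Ulk1 was at -0.21. Ulk1 ranged from 30.4 to 40.9 TPM, with a median of 33.7, in NONCAC rFibcd1 and from 13.3 to 62.1 TPM, with a median of 27.99, in CAC rFibcd1. Library 3 was the highest of the CAC group, and without it and library 20 Ulk1 was called lower in CAC (-0.45, adjusted p = 0.0112), beside 1.73% of all genes.

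The comparison of rFibcd1 with mock asks whether the injected protein moved these genes in either melanoma. No member passed in CAC mice, beside 0.0447% of all genes, or in NONCAC mice, beside 0.417% of all genes. No member passed the test of whether the melanoma effect differed between rFibcd1 and mock, beside 0.0223% of all genes. In CAC mice all 10 values were below 0, from -0.29 (Map1lc3b) to -0.01 (Becn1), against a median of 0.03 over all genes. The members varied together within groups, so these signs are not separate observations. Only 1 member had an unadjusted p under 0.05, beside 6.01% of all genes higher and 4.51% lower. This was Atg14, which ranged from 8.27 to 14.8 TPM, with a median of 9.75, in CAC mock and from 4.72 to 14.4 TPM, with a median of 7.17, in CAC rFibcd1 (-0.28, SE 0.120, p = 0.0258, adjusted p = 0.413). Among high-state libraries 0 members were called in CAC mice, beside the 4.76% of all genes called higher and 0.812% lower, with values from -0.40 (Map1lc3b, adjusted p = 0.189) to 0.09 (Bnip3l). Without the libraries that stood apart 0 were called either, and Map1lc3b was at -0.34 (p = 0.00167, adjusted p = 0.116). In NONCAC mice the values went from -0.13 (Sqstm1) to 0.28 (Ulk1), against a median of 0.15 over all genes, and 0 members had an unadjusted p under 0.05, beside 16.7% of all genes higher and 0.648% lower. A fit of these NONCAC groups alone called Map1lc3a (0.26, adjusted p = 0.0243) and Ulk1 (0.28, adjusted p = 0.01) higher with rFibcd1, beside 19% of all genes in that direction, while after median-ratio scaling in the full fit these values were 0.09 and 0.11. An index of clock genes (mean log2 level of genes in phase with Arntl less that of genes in the opposite phase) differed between these groups as well, from -1.97 to 0.96 in NONCAC rFibcd1 against -4.70 to -1.90 in NONCAC mock. The index was a term only in fits of all diaphragm groups, so its part in these calls was not tested. The Dunn test called 0 members in either melanoma. For the difference of melanoma effects the values went from -0.46 (Ulk1, SE 0.241, adjusted p = 0.6) to 0.07 (Sqstm1), and 0 members had an unadjusted p under 0.05, beside 0.641% of all genes higher and 8.15% lower. These intervals are wide: the SE of that difference was 0.217 for Map1lc3a and 0.218 for Map1lc3b.

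The size of the melanoma effect was compared between muscles in a fit of the 6 groups without rFibcd1. It was larger in the TA than in the SOL for 5 members, beside 19.1% of all genes in that direction: Tfeb (0.73, SE 0.129, adjusted p = 0.000312), Map1lc3b (1.11, SE 0.281, adjusted p = 0.00678), Bnip3l (0.84, SE 0.211, adjusted p = 0.00686), Atg14 (0.53, SE 0.141, adjusted p = 0.00971) and Ulk1 (0.70, SE 0.256, adjusted p = 0.0482). The median of all genes in this contrast was 0.30, and after median-ratio scaling Map1lc3b alone passed (0.72, adjusted p = 0.0431), beside 3.98% of all genes in that direction. The Ulk1 call was lost with the column number, which pairs TA and SOL libraries, as a block (0.70, adjusted p = 0.0539), and in 29 of the 39 fits that each left out 1 library (0.63 to 0.73, adjusted p from 0.0505 to 0.107). Becn1 (0.31, adjusted p = 0.13), Sqstm1 (0.57, adjusted p = 0.176), Bnip3 (0.67, adjusted p = 0.183) and Gabarapl1 (0.58, adjusted p = 0.231) did not pass. Without library 8 of the TA these were 0.18, 0.33, 0.32 and 0.32, and Becn1 passed without library 6 of the TA (0.41, adjusted p = 0.0311). Map1lc3a, with an effect of 1.23 in the TA and 1.09 in the SOL in the fits of single muscles, had a difference of 0.14 (SE 0.258, adjusted p = 0.713), which was 0.03 without CAC SOL library 6 or 10, 0.04 without CAC TA library 8 and 0.35 without CAC SOL library 8. After median-ratio scaling the directions of Map1lc3a and Becn1 in this contrast turned. The effect was smaller in the diaphragm than in the TA for Map1lc3b (-0.83, SE 0.245, adjusted p = 0.0432) and Tfeb (-0.46, SE 0.113, adjusted p = 0.0139), beside 4.33% of all genes in that direction. The Map1lc3b value was -0.67 (adjusted p = 0.0247) without library 20 of the diaphragm and library 8 of the TA, its call was lost in 19 of 39 fits that left out 1 library (-0.57 and adjusted p = 0.15 without library 8 of the TA alone), and neither gene passed after median-ratio scaling (-0.57 and -0.21), where 5.04% of all genes did. The remaining differences between diaphragm and TA did not pass: Bnip3l (-0.52, adjusted p = 0.0847), Sqstm1 (-0.67, adjusted p = 0.129), Map1lc3a (-0.51, adjusted p = 0.157), Gabarapl1 (-0.49, adjusted p = 0.326) and Bnip3 (-0.51, adjusted p = 0.332). Atg14 (-0.22), Ulk1 (-0.24) and Becn1 (-0.19) did not pass either, and their scaled values were 0.00, 0.01 and 0.06. Without library 8 of the TA, the values were -0.30 for Bnip3l, -0.43 for Sqstm1, -0.23 for Gabarapl1, -0.16 for Bnip3, -0.13 for Atg14 and -0.06 for Becn1. Without diaphragm library 20, Sqstm1 (-0.80, adjusted p = 0.0304) and Bnip3l (-0.58, adjusted p = 0.0395) passed and Ulk1 was at -0.38, and without library 6 of the TA Bnip3l passed (-0.61, adjusted p = 0.0327) and Becn1 was at -0.29. Between the diaphragm and the SOL, 0 members passed, beside 2.52% of all genes. At an unadjusted p under 0.05 there were 3 with a larger effect in the diaphragm, beside 12.9% of all genes in that direction, Atg14 (0.31, p = 0.0161), Tfeb (0.27, p = 0.0229) and Ulk1 (0.46, p = 0.0459). The others had adjusted p from 0.426 to 0.932, with differences of 0.31 (Bnip3l), 0.29 (Map1lc3b), 0.16 (Bnip3), 0.12 (Becn1), 0.09 (Gabarapl1), -0.10 (Sqstm1) and -0.37 (Map1lc3a). Single CAC libraries moved several of these: Map1lc3a was at -0.16 without SOL library 8, Map1lc3b at 0.17 without SOL library 9, Becn1 at 0.06 without SOL library 6, and Bnip3 at 0.03, Gabarapl1 at -0.09 and Sqstm1 at -0.23 without diaphragm library 20.

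The muscles differed in the resting level of several members among NONCAC mice without rFibcd1. Bnip3 and Gabarapl1 had the widest span. Bnip3 was 129.8 ± 15.2 TPM in the TA (SD, n = 5), 225 ± 28.98 TPM in the diaphragm (SD, n = 9) and 541 ± 70.1 TPM in the SOL (SD, n = 5), and Gabarapl1 was 34.3 ± 2.65 TPM, 91.1 ± 11.8 TPM and 146 ± 35.8 TPM in the same order. The TA was lower than the SOL for 7 members, beside 63.9% of all genes in that direction, a contrast in which the median of all genes was -0.47. For Bnip3 (-2.05, adjusted p = 4.27e-08) and Gabarapl1 (-2.03, adjusted p = 2.12e-08) this held after median-ratio scaling (-1.45 and -1.44), beside 26.4% of all genes in that direction. For Atg14 (-0.59) the scaled value was -0.06, and for Sqstm1 (-0.49), Ulk1 (-0.42), Becn1 (-0.36) and Tfeb (-0.22) the direction turned, to 0.11, 0.17, 0.22 and 0.36. Of these, Becn1 (adjusted p = 0.00198) and Tfeb (adjusted p = 0.00625) passed in the turned direction, as did Bnip3l (0.46, adjusted p = 0.000854), beside 26.7% of all genes. Map1lc3a (-0.29, adjusted p = 0.155) and Map1lc3b (-0.29, adjusted p = 0.198) did not pass, and both had 0.31 after scaling. With the column number as a block the Ulk1 call was lost (-0.42, adjusted p = 0.0546). In fits that each left out 1 of the 39 libraries, Sqstm1 lost its call in 10 (adjusted p up to 0.0999, without TA 62), Ulk1 in 8 (up to 0.0804, without TA 65) and Tfeb in 4 (up to 0.106, without SOL 64). The diaphragm was lower than the SOL for 6 members, beside 22.1% of all genes in that direction, with no overlap for any of the 6, as for 17.2% of all genes: Bnip3 (-1.26, adjusted p = 5.15e-05), Gabarapl1 (-0.66, adjusted p = 0.0191), Ulk1 (-0.42, adjusted p = 0.0341), Becn1 (-0.39, adjusted p = 0.00139), Tfeb (-0.39, adjusted p = 0.000192) and Atg14 (-0.24, adjusted p = 0.0318). After median-ratio scaling Bnip3, Gabarapl1, Becn1 and Tfeb still passed, at -1.20, -0.60, -0.33 and -0.34, beside 23.4% of all genes in that direction. Without NONCAC SOL library 65, 3 of the 6 were called, and Gabarapl1 (-0.53, adjusted p = 0.0845), Ulk1 (-0.43, adjusted p = 0.0546) and Atg14 (-0.24, adjusted p = 0.05) were not. Ulk1 was also lost without SOL 61, 63 or 64, and Atg14 without SOL 63 or 64 or diaphragm 64. With the column number as a block Ulk1 was lost (-0.43, adjusted p = 0.0554) and Map1lc3a was called lower (-0.32, adjusted p = 0.0408). Sqstm1 (-0.43, adjusted p = 0.0756), Map1lc3a (-0.28, adjusted p = 0.169), Bnip3l (-0.17, adjusted p = 0.325) and Map1lc3b (0.25, adjusted p = 0.268) did not pass. Sqstm1 passed without CAC diaphragm library 20 (adjusted p = 0.032) or CAC TA library 8 (adjusted p = 0.0365). The diaphragm was higher than the TA for 4 members, beside 64% of all genes in that direction and a median over all genes of 0.44. Gabarapl1 (1.38, adjusted p = 1.78e-06) remained higher after scaling at 0.84, Bnip3 (0.79, adjusted p = 0.00325) had 0.24 (adjusted p = 0.281), and the directions of Map1lc3b (0.53) and Atg14 (0.36) turned, to -0.01 and -0.12. The values of the other 6 members were 0.06 (Sqstm1), 0.01 (Map1lc3a), -0.00 (Ulk1), -0.03 (Bnip3l), -0.03 (Becn1) and -0.17 (Tfeb), none of them called, though Tfeb passed in 5 of 39 fits that left out 1 library (-0.20 to -0.17, adjusted p from 0.0226 to 0.0493). These 6 were called lower in the diaphragm after scaling, from -0.48 (Sqstm1) to -0.69 (Tfeb), when 36% of all genes were called higher and 34.4% lower.

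Over all 8 groups, the members differed in how far their group means were spread. Bnip3 spanned 5.731-fold, from 130 TPM in the NONCAC TA to 744 TPM in the CAC SOL, and Gabarapl1 5.337-fold, from 34.3 to 183 TPM between the same groups. Map1lc3b spanned 3.341-fold, from the NONCAC TA (59.01 TPM) to the CAC TA (197 TPM), and Map1lc3a 2.764-fold, from the NONCAC TA (159 TPM) to the CAC SOL (439 TPM). The order of the Map1lc3a means from the top was CAC SOL, CAC TA, CAC rFibcd1 diaphragm, CAC mock diaphragm, NONCAC SOL, NONCAC rFibcd1 diaphragm, NONCAC mock diaphragm and NONCAC TA, so all 4 CAC groups came first. The CAC diaphragm groups, at 272 ± 120.5 TPM and 270 ± 64.1 TPM, did not differ beyond their spread, nor did the NONCAC mock diaphragm (161 ± 19.5 TPM) and the NONCAC TA (159 ± 12.5 TPM). Sqstm1 (2.254-fold), Bnip3l (1.915-fold), Tfeb (1.723-fold), Atg14 (1.695-fold) and Becn1 (1.537-fold) spanned less, and Ulk1 (1.354-fold) least.

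Shares within the ATG8 family compare genes of a library with each other and do not depend on its scaling, while the summed level does. The 5 family members measured were Map1lc3a, Map1lc3b and Gabarapl1 with Gabarap and Gabarapl2, which are not among the 10 genes. Their summed level was 540 ± 27.6 TPM in the NONCAC mock diaphragm (SD, n = 9) against 851 ± 223 TPM in CAC (SD, n = 10), 396 ± 10.8 against 946 ± 356 TPM in the TA (SD, n = 5 each) and 657 ± 43.5 against 1060 ± 229 TPM in the SOL (SD, n = 5 each). Map1lc3b made up 14.9 ± 0.703% of the sum in the NONCAC TA and 20.4 ± 2.63% in the CAC TA, ranges that did not overlap, but 11.01 ± 0.588% in the NONCAC SOL and 9.96 ± 1.79% in the CAC SOL, which did. Map1lc3a went from 29.7 ± 2.603% in the NONCAC SOL to 40.2 ± 7.46% in the CAC SOL, without overlap, while in the TA it made up 40.1% and 41.7%. The share of Gabarapl2 was lower in the CAC TA, at 7.802 to 9.787% against 13.65 to 15.54%, and that of Gabarap in the CAC SOL, at 20.78 to 25.78% against 25.95 to 28.15%, both without overlap. Gabarapl1 made up 8.67 ± 0.751% in the NONCAC TA, 16.9 ± 2.38% in the NONCAC mock diaphragm and 22.1 ± 4.299% in the NONCAC SOL. No test was run on these shares.

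**Figure D3:**
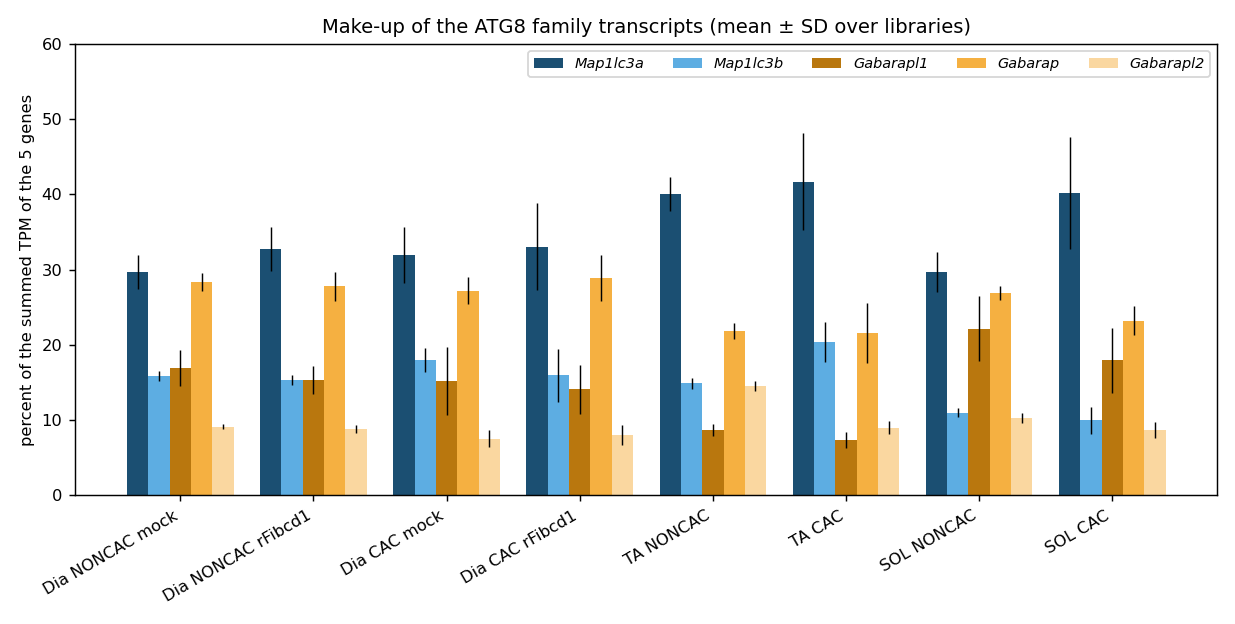
Share of each ATG8 transcript in the summed TPM of the 5 genes (percent, from 0), as bars of the group mean with the SD over libraries, for the 8 groups. The Map1lc3b bar is taller in the CAC than in the NONCAC TA (20.4% against 14.9%), and the Map1lc3a bar in the CAC than in the NONCAC SOL (40.2% against 29.7%).

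Bnip3 over Bnip3l, the related mitophagy receptors, was 13.6 ± 1.67 in the NONCAC SOL and 19.2 ± 2.90 in the CAC SOL (SD, n = 5 each), 3.60 and 4.54 in the TA, and 6.41 ± 1.10 (n = 9) and 8.30 ± 2.51 (n = 10) in the mock diaphragm. The ranges were apart in the SOL. They overlapped in the TA (3.32 to 4.45 in NONCAC, 3.37 to 6.21 in CAC) and the mock diaphragm (5.42 to 8.31 and 4.975 to 13.4). Map1lc3b over Becn1 lay between 3.52 and 4.10 in the NONCAC TA and between 6.21 and 11.3 in the CAC TA, with no overlap. This ratio overlapped in the SOL (3.41 to 3.85 in NONCAC, 3.235 to 6.25 in CAC) and the mock diaphragm (5.04 to 6.16 and 5.56 to 11.6). Within groups, the members varied together. Over the 59 libraries, after the group mean was taken off each, all 45 pairs of members had a Pearson correlation above 0, from 0.12 to 0.89 with a median of 0.52, and the highest was that of Map1lc3b and Sqstm1. These points share their libraries and the scaling of each library, and the libraries that stood apart weigh on them.

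**Figure D4:**
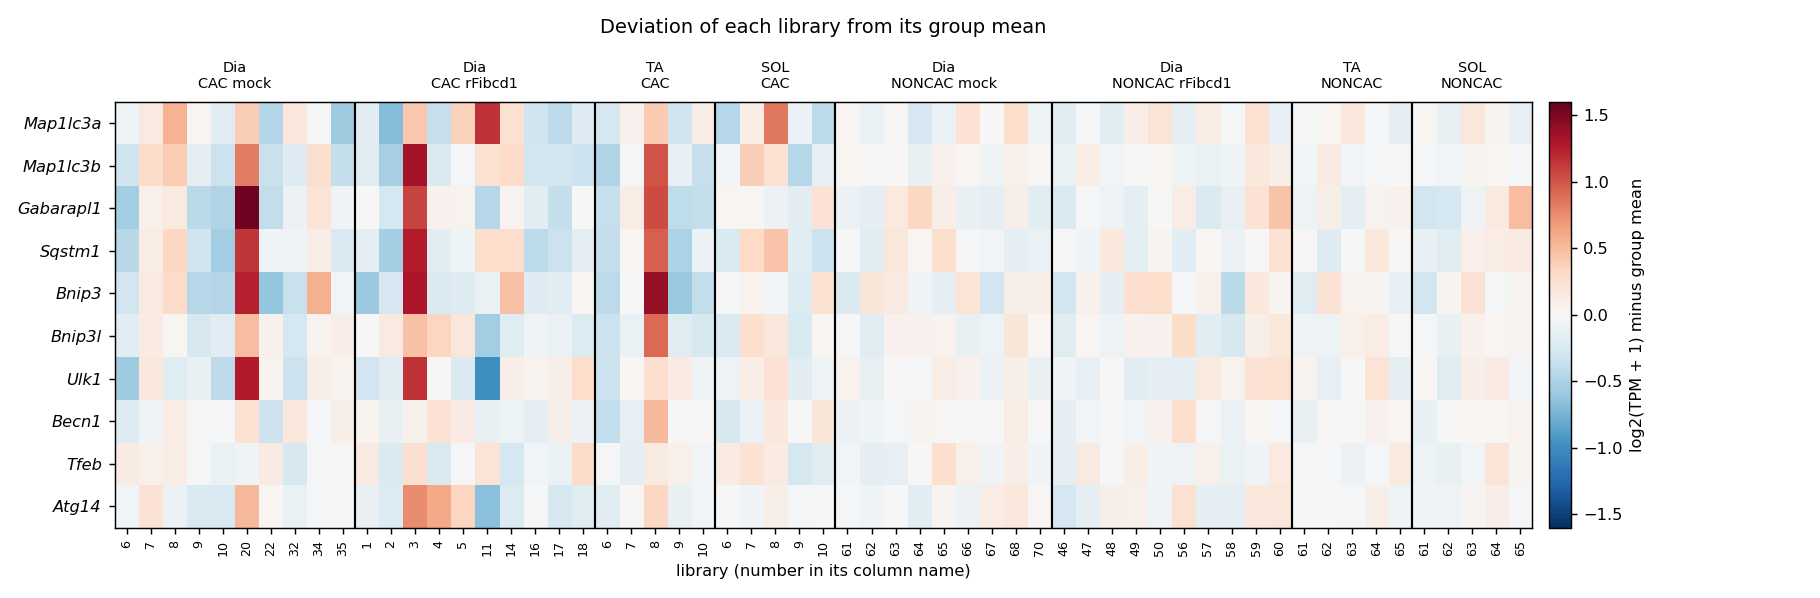
Deviation of each of the 59 libraries (columns, by the number in the column name) from its group mean of log2(TPM + 1), for the 10 genes (rows), red above and blue below the mean. Library 20 of the CAC mock diaphragm, library 3 of the CAC rFibcd1 diaphragm and library 8 of the CAC TA are red for most genes, and library 11 of the CAC rFibcd1 diaphragm is red for Map1lc3a and blue for Ulk1 and Atg14.

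Library 20 of the CAC mock diaphragm was the highest of its group for 8 of 10 members, all but Map1lc3a and Tfeb, with a median deviation of 0.67 on the log2 scale. Library 3 of the CAC rFibcd1 diaphragm was the highest for 7 members (median 0.92) and had the highest summed liver markers of its group (1334 TPM, Alb, Apoa1, Ttr, Apoc3 and Serpina1a), and library 8 of the CAC TA for all 10 (median 0.71). Library 8 of the TA also had the lowest summed skeletal muscle markers of its group (30897 TPM), the highest summed macrophage markers (122.2 TPM, Adgre1, Cd68, Csf1r, Cd14, Mrc1 and C1qa), the highest neutrophil markers (55.2 TPM) and the lowest mitochondrial share (25.1%). Library 11 of the CAC rFibcd1 diaphragm was the highest for Map1lc3a, at 565 TPM, and the lowest for Ulk1 (13.3 TPM), Atg14 (4.72 TPM), Bnip3l (28.8 TPM) and Gabarapl1 (77.2 TPM). Across the groups, summed macrophage markers ranged from 19.65 to 122.2 TPM in the CAC TA against 9.953 to 22.37 in NONCAC, from 33.98 to 155.2 in the CAC SOL against 42.45 to 55.99, and from 119.7 to 423 in the CAC mock diaphragm against 75.41 to 172.2, with all 6 markers above 0. Summed neutrophil markers (S100a8, S100a9, Ly6g, Retnlg, Mmp8 and Camp) ranged from 7.148 to 55.18 TPM in the CAC TA against 1.115 to 3.869, where Camp was at 0 in all 5 libraries, from 7.438 to 31.99 in the CAC SOL against 3.213 to 4.812, and from 9.715 to 57.94 in the CAC mock diaphragm against 3.127 to 21.06. Summed adipocyte markers (Adipoq, Plin1, Cidec, Cfd, Retn and Lep, all above 0 in each group) ranged from 192.9 to 2691 TPM in the CAC mock diaphragm, with a median of 841.9, against 129.8 to 1258 in NONCAC, with a median of 299.1. They ranged from 24.21 to 63.97 TPM in the CAC TA against 24.52 to 59.46, and from 157.3 to 4825 in the CAC SOL against 328.4 to 1079. The summed skeletal muscle markers were apart in the SOL, at 57238 to 76604 TPM in CAC against 44764 to 54422 in NONCAC. They overlapped in the TA (30897 to 56367 against 51997 to 65419) and the mock diaphragm (27787 to 65316 against 33407 to 44155). Liver markers overlapped between melanomas in each muscle and reached 7681 TPM in 1 NONCAC mock diaphragm library, and red blood cell markers overlapped too, at 1713 to 14474 TPM in the CAC mock diaphragm against 2406 to 10579 in NONCAC. The part of these cells, and of the mitochondrial share, in the members' differences was not tested.

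The other genes of the pathway, a list of 82 symbols of which 80 were in the table and tested, were higher in CAC for 42 genes and lower for 0 in the mock diaphragm, beside 30.9% and 2.67% of all genes. They were higher for 54 and lower for 2 in the TA, beside 56.4% and 3.78%. In the SOL 19 were higher and 3 lower, beside 17.5% and 7.54%. In the rFibcd1 diaphragm 8 were higher and 2 lower, beside 7.14% and 1.97%. The mock diaphragm count fell to 17 higher and 1 lower with the state as a term, and to 9 higher and 0 lower among high-state libraries, beside 12.3% and 5% of all genes called higher. Their median log2 fold changes were 0.25, 0.48, 0.13 and 0.07 in this order, beside 0.20, 0.41, 0.09 and 0.08 over all genes. After median-ratio scaling the split was 9 higher and 8 lower in the mock diaphragm, beside 7.42% and 8.74% of all genes. It was 20 and 17 in the TA, beside 20% and 20.8%. It was 17 and 9 in the SOL, beside 14.4% and 13.7%, and 5 and 4 in the rFibcd1 diaphragm, beside 4.27% and 5.13%. Between rFibcd1 and mock, and for the difference of melanoma effects, 0 of the 80 were called. At an unadjusted p under 0.05, 1 was higher and 7 lower in CAC mice, beside 6.01% and 4.51% of all genes, and 16 were higher and 0 lower in NONCAC mice, beside 16.7% and 0.648%. For the difference 0 were higher and 12 lower, beside 0.641% and 8.15%. Among high-state libraries 4 of the 80 were higher and 2 lower with rFibcd1 in CAC mice, beside 4.76% and 0.812% of all genes. Without the libraries that stood apart 1 was lower, beside 0.119%.

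**Figure D5:**
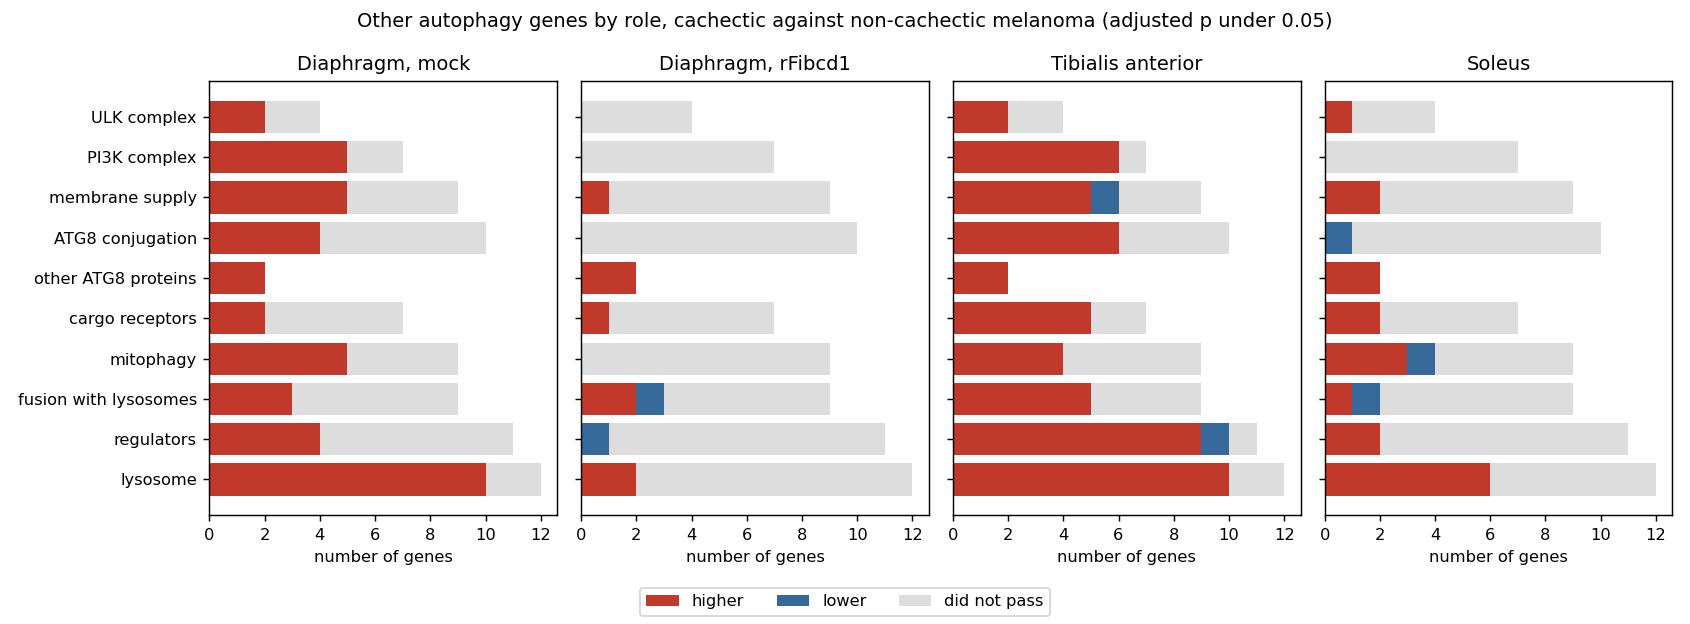
Number of the other 80 autophagy genes, by role (bars), that were higher (red), lower (blue) or did not pass (grey) between CAC and NONCAC in the 4 pairs of groups, at an adjusted p under 0.05. Of the 12 lysosome genes, 10 were higher in the mock diaphragm, 2 in the rFibcd1 diaphragm, 10 in the TA and 6 in the SOL. Both other ATG8 genes were higher in all 4.

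The counts of each role are to be read beside the shares of all genes called higher, 30.9% in the mock diaphragm, 56.4% in the TA and 17.5% in the SOL. Among roles close to that of the ATG8 members, both remaining ATG8 genes were called higher in every CAC comparison: Gabarap by 0.55 (adjusted p = 0.000274) in the mock diaphragm, 0.45 (0.00658) in the rFibcd1 diaphragm, 1.15 (0.00512) in the TA and 0.45 (0.00505) in the SOL, and Gabarapl2 by 0.32 (0.000315), 0.24 (0.012), 0.48 (0.0164) and 0.41 (0.00813). After median-ratio scaling Gabarap passed in the TA (0.67) and the SOL (0.34), and Gabarapl2 in the SOL (0.30) but not in the mock diaphragm (0.09) or the TA (0.01). Of the 10 genes of ATG8 conjugation, 4 were higher in the mock diaphragm, such as Atg7, the E1-like enzyme (0.33, adjusted p = 0.0198), 6 in the TA and 0 in the SOL, where Atg10 was lower (-0.46, adjusted p = 0.0358). Of the 7 cargo receptors, 2 were higher in the mock diaphragm, 5 in the TA and 2 in the SOL, with Optn, a ubiquitin-binding receptor, at 0.86 in the TA and 0.57 (adjusted p = 0.00196) in the SOL. Of the 9 mitophagy genes, 5 were higher in the mock diaphragm, 4 in the TA, a smaller share than that of all genes, and 3 in the SOL. Fkbp8, a mitochondrial receptor of LC3, was among them each time (0.45, 0.79 and 0.47), Pink1, the kinase that marks damaged mitochondria, was higher in the TA (0.60, adjusted p = 0.000831), and Fundc1, another receptor, was lower in the SOL (-0.30, adjusted p = 0.0341). Fundc1 was called lower in all 4 comparisons after median-ratio scaling (-0.35 in the mock diaphragm, -0.28 in the rFibcd1 diaphragm, -0.37 in the TA and -0.40 in the SOL).

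At the start of the pathway, 2 of 4 ULK complex genes were higher in the mock diaphragm, 2 in the TA, near the 56.4% of all genes, and 1 in the SOL. Of the 7 PI3K complex genes, 5, 6 and 0 were. Of the 9 membrane supply genes, 5 were higher in the mock diaphragm, 5 in the TA with 1 lower, and 2 in the SOL, among them Vmp1 at 0.65 (adjusted p = 0.000129) in the mock diaphragm and 0.56 in the SOL. Of the 9 genes of fusion with lysosomes, 3 were higher in the mock diaphragm and 5 in the TA, against 30.9% and 56.4% of all genes. In the SOL 1 was higher and 1 lower, and in the rFibcd1 diaphragm 2 were higher and 1 lower. Among them Rab7, the GTPase of late endosomes needed for fusion, was higher in all 4 comparisons, by 0.69 (adjusted p = 5.97e-06) in the mock diaphragm, 0.32 (0.0248) in the rFibcd1 diaphragm, 1.15 (0.000594) in the TA and 0.69 (0.00107) in the SOL. Ctsl, a lysosomal cysteine protease, was higher by 0.86 (adjusted p = 0.00174) in the mock diaphragm and 1.88 (adjusted p = 0.0028) in the TA. Atp6v1h, a subunit of the proton pump, was higher by 0.67 (0.00189) in the mock diaphragm, 0.56 (0.0197) in the rFibcd1 diaphragm and 1.07 (0.00406) in the SOL. Of the 11 regulators, 4 were higher in the mock diaphragm, 9 in the TA with 1 lower, and 2 in the SOL. Trp53inp1, which binds ATG8 proteins, was higher by 0.80 (0.00595), 1.37 (0.000415) and 0.60 (0.0201) in these muscles, while its relative Trp53inp2 was lower in the TA (-0.83, adjusted p = 0.00359) and in the rFibcd1 diaphragm (-0.54, adjusted p = 0.0141). Foxo3 was higher in the mock diaphragm (0.63, adjusted p = 0.0022) and Foxo1 in the TA (1.10, adjusted p = 0.0196). After median-ratio scaling Rab7 (0.46, 0.67 and 0.58), Vmp1 (0.42, 0.25 and 0.46) and Trp53inp1 (0.60, 0.96 and 0.51) were called higher in the mock diaphragm, the TA and the SOL alike, and Trp53inp2 was called lower in these (-0.52, -1.31 and -0.41) and in the rFibcd1 diaphragm (-0.61).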

How the data were processed

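RNA from 59 muscle samples of 8 groups was sequenced. The authors trimmed and filtered reads, aligned them to the mouse genome GRCm38 (mm10 in the submitters' processing notes) with CLC Genomics Workbench and deposited TPM values, which are scaled by transcript length and to a fixed total per library. Annotation is not given in the sources used here, and the labels and the study's methods name different library kits. Depth per sample is unknown, so no counting interval was computed. By the study's methods, replicates are tissues of independent animals.

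Groups came from the labels. Values were taken as log2(TPM + 1), which understates changes of low genes. Genes with at least 1 TPM in as many libraries as the smallest group were fitted with limma 3.58.1 (R 4.3.3; lmFit, contrasts.fit, eBayes with trend), two-sided, with Benjamini-Hochberg adjustment over all genes and a threshold of 0.05. The fits held 39 diaphragm libraries (13426 genes), 10 TA (11105), 10 SOL (11957) and the 39 libraries of the 6 groups without rFibcd1 (13501), for 13 comparisons, and were tested on simulated data. Pairs of columns had correlations up to 0.9969, and none were identical. The groups of a muscle share no column numbers. Between muscles, the deviations from group means of same-numbered libraries correlated above 0.1 in all 10 pairs of diaphragm and TA (lowest 0.13) and all 10 of TA and SOL (lowest 0.20), so the numbers were taken to pair samples, but in 7 of 10 pairs of diaphragm and SOL (lowest -0.00). The main fit took samples of different muscles as independent, so its SE and p-values between muscles leave this pairing out. The block was fitted over all 3 muscles, and its values are given where it changes a call. The labels do not say what a number marks. The study's Kruskal-Wallis and Dunn tests were replaced by limma, with Dunn's test as an alternative. Other alternatives were a pseudocount of 0.1, no filter, a mean of at least 5 TPM, median-ratio scaling, the state (Pcna-ps2 above 2 TPM) as a term, high-state libraries only, a clock gene index as a term, only the groups compared, the column number as a block, and leaving out each library. Leaving out the 3 libraries that stood apart was chosen after seeing the data.

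All 10 members were named in each comparison between melanomas or muscles; for rFibcd1, those called or at an unadjusted p under 0.05. Of the other pathway genes, up to 3 called ones per role and comparison were candidates for naming, by size of change. The members and all lists were chosen with earlier results of these data known, so no count over them is independent support. Promoter windows and positions were read with Python 3.11.15 and pandas 2.3.3, and figures drawn with matplotlib 3.10.9.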

Additional observations from a re-analysis of the deposited data

Results flagged for a closer look

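Groups of 4 to 10 libraries were screened for a highest or lowest library far from the others for its range (Dixon's 95% critical value), which chance meets in about 1 in 20 groups; 19 of the 80 combinations of gene and group met it. Library 20 of the CAC mock diaphragm was far above its group for Gabarapl1 (361 TPM), Sqstm1 (564), Bnip3 (820.2), Bnip3l (61.21) and Ulk1 (76.26). Library 3 of the CAC rFibcd1 diaphragm was far above for Map1lc3b (307.5 TPM), Gabarapl1 (226.4), Sqstm1 (587.9), Bnip3 (698.1) and Ulk1 (62.09), and library 11 of that group for Map1lc3a (565.4). Library 8 of the CAC TA was far above for Map1lc3b (367 TPM), Gabarapl1 (136.9), Sqstm1 (761.6), Bnip3 (747.3) and Bnip3l (120.3). Among NONCAC groups, TA library 62 was high for Map1lc3b (64.46 TPM), TA library 65 for Tfeb (20.31) and rFibcd1 diaphragm library 56 for Becn1 (20.52). The melanoma effect differed between muscles by a test of the difference itself: diaphragm against TA for Map1lc3b (-0.83) and Tfeb (-0.46), and TA against SOL for Map1lc3b (1.11), Bnip3l (0.84), Tfeb (0.73), Ulk1 (0.70, not called with the column number as a block) and Atg14 (0.53), as log2 differences by limma.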

How the results depend on the processing

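After median-ratio scaling, members called fell from 5 to 1 in the mock diaphragm, from 10 to 6 in the TA, from 4 to 2 in the SOL, from 2 to 0 for the effect in diaphragm against TA and from 5 to 1 in TA against SOL, and rose from 4 to 7 for the NONCAC level of diaphragm against TA. Directions turned for Ulk1 (-0.09) and Tfeb (-0.10) in the mock diaphragm, Tfeb (-0.01) and Atg14 (-0.04) in the rFibcd1 diaphragm, Ulk1 (-0.10) in the TA, Ulk1 (0.01), Becn1 (0.06) and Atg14 (0.00) for the effect in diaphragm against TA, Gabarapl1 (-0.05) and Becn1 (-0.01) in diaphragm against SOL, Map1lc3a (-0.26) and Becn1 (-0.07) in TA against SOL, Map1lc3a (-0.53), Sqstm1 (-0.48), Map1lc3b (-0.01) and Atg14 (-0.12) for the NONCAC level of diaphragm against TA, and Map1lc3a (0.31), Map1lc3b (0.31), Sqstm1 (0.11), Bnip3l (0.46), Ulk1 (0.17), Becn1 (0.22) and Tfeb (0.36) for TA against SOL. With the state as a term the counts were 3 in the mock diaphragm and 1 for diaphragm against TA, and Atg14 in the rFibcd1 diaphragm was -0.01 (-0.02 with the clock index); among high-state libraries the mock diaphragm count was 1. The rFibcd1 diaphragm count was 1 with a mean of at least 5 TPM (Becn1, adjusted p = 0.0397) and 1 without the libraries that stood apart (Ulk1), where Ulk1 was -0.01 in the mock diaphragm Atg14 -0.06 in the rFibcd1 diaphragm and Gabarapl1 -0.09 for the effect in diaphragm against SOL. A fit of the NONCAC diaphragm groups alone gave 2 for rFibcd1 against mock, and no filter gave 1 for diaphragm against TA. Over these alternatives 84 counts stayed within 1.5 times and 13 did not, and of the members' fold changes 35 lost the call, 13 gained it, 30 turned and the others kept direction and side of the threshold. The cause was not tested.

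Leaving out each library gave 4 to 7 called members in the mock diaphragm, 0 to 3 in the rFibcd1 diaphragm, 0 to 0 for both rFibcd1 comparisons, their difference and diaphragm against SOL, 9 to 10 in the TA, 3 to 6 in the SOL, 1 to 4 for diaphragm against TA, 4 to 6 for TA against SOL, and 4 to 5, 3 to 7 and 4 to 7 for the NONCAC levels. Ulk1 in the mock diaphragm ran from -0.01 (without library 20) to 0.20, Atg14 from -0.06 to 0.10 in the rFibcd1 diaphragm and from -0.03 to 0.02 in the SOL, Bnip3l in the SOL from -0.09 to 0.03, Gabarapl1 from -0.09 to 0.16 and Sqstm1 from -0.23 to 0.01 for the effect in diaphragm against SOL, and Map1lc3a from -0.02 to 0.05 and Ulk1 from -0.04 to 0.05 for the NONCAC level of diaphragm against TA.

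No paired analysis was possible within a muscle because its groups share no column numbers. With the column number as a replicate block, 2, 0, 4, 4, 6 and 6 members were called in the 6 comparisons between muscles, against 2, 0, 5, 4, 6 and 7. The Ulk1 call was lost in TA against SOL for the effect and the NONCAC level and in diaphragm against SOL for the NONCAC level (-0.43, adjusted p = 0.0554), where Map1lc3a gained one (-0.32, adjusted p = 0.0408). The block changed no other call, and it turned Gabarapl1 (-0.02) for the effect in diaphragm against SOL and Map1lc3a (-0.03) for the NONCAC level of diaphragm against TA, neither of them called.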

Other observations

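Likeness to a member was measured over the 59 libraries on the log2 of median-ratio scaled TPM + 1, after the group mean was taken off each. The closest among 8753 genes with a mean of at least 5 TPM were Fbxo31 for Map1lc3b (Pearson's r 0.95), Dnajb12 for Sqstm1 (0.92), Ubxn1 for Map1lc3a (0.90), Tfdp2 for Bnip3 (0.90), Klhl21 for Ulk1 (0.88), Ranbp9 for Gabarapl1 (0.86), Gigyf1 for Atg14 (0.84), Macrod1 for Tfeb (0.83), Ezh1 for Bnip3l (0.82) and Cdk11b for Becn1 (0.77). These correlations are of differences within groups, not between them, and the libraries share their scaling. Tango2 was among the 2 closest genes of both Map1lc3b (0.93) and Bnip3 (0.88), and Cbx7 of both Bnip3l (0.81) and Atg14 (0.82).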
